A study of Mus musculus with 6 samples.

Results

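Transcript levels of 10 genes of cell cycle control in G1, out of 38124 genes in the deposited table, were compared in cultured mouse macrophages. The genes were chosen by name and were all found: the D cyclins Ccnd1, Ccnd2 and Ccnd3, their kinases Cdk4 and Cdk6, the cyclin E1 gene Ccne1 and its kinase Cdk2, the inhibitors Cdkn1a (p21) and Cdkn1b (p27), and the retinoblastoma gene Rb1. The cells were wild-type macrophages derived from the bone marrow of C57BL mice, a cell type grown in culture from marrow precursors, and their poly(A) RNA was sequenced. In 3 libraries the macrophages were left untreated, and in 3 they were kept for 24 hr with thymocytes that dexamethasone, a glucocorticoid drug, had made apoptotic, at a stated ratio of 1:40. Apoptotic cells were removed before harvest, each library is stated to be a biological replicate, and the comparison asks how macrophages respond to the uptake of dead cells. The age and sex of the mice are not given in the sources used here.

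In G1, mitogens such as CSF1, the growth factor of macrophages, raise the D cyclins, which bind CDK4 or CDK6 and start the phosphorylation of the RB protein. Phosphorylated RB releases E2F transcription factors, which switch on cyclin E and the genes of DNA synthesis, and cyclin E with CDK2 completes the step. The p21 and p27 proteins inhibit cyclin E with CDK2, while they also help cyclin D to assemble with its kinase. Macrophages leave the cycle when growth factor signals end.

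Values are RPKM, read numbers scaled to the length of the gene and the depth of the library, so that levels of different genes can be set side by side as far as the gene models allow. Depth was 19315132 to 25933208 mapped reads per library. Differences were tested in limma on log2(RPKM + 1) over the 10173 genes that reached 1 RPKM in 3 or more of the libraries, and log2 changes are treated minus untreated on that scale. An adjusted p under 0.05 was reached by 64.8% of these genes, 18.8% in the higher and 46.0% in the lower direction in treated libraries. Of the 10 G1 genes, 9 passed the expression filter, none of them through one group alone; 6 fell, 1 rose and 2 did not pass, and Ccnd2 was too low to be tested. The median log2 change was -0.46 for the 9 genes and -0.13 for all genes tested, and with median-of-ratios scaling, which shifts the median of all tested genes to 0.02, the same counts of 6 and 1 were found against 27.9% lower and 31.9% higher among all genes. The ranges of the groups did not overlap in 7 of the 9 tested genes, against 69.6% of all tested genes.

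The libraries carried macrophage transcripts at high levels. Summed over 10 macrophage markers the level was 15716 to 16446 RPKM in untreated and 20185 to 22515 in treated libraries. Most of this sum was from Lyz2, at means of 13388 and 19419 RPKM, so its rise is not one of most markers. Of the 10 markers, 2 were higher (Mertk, and Lyz2, whose call was lost in a fit with no filter). The other 8 were lower, among them Fcgr1, Cd14 and Itgam. Of 20 thymocyte and T cell markers, 19 were under 1 RPKM in every treated library, and 5 (Cd3e, Cd8b1, Rag2, Ptcra and Themis) were at 0 in all 6 libraries. Others, under the filter, differed in both directions. Cd3d was at 0 in every untreated library and at 0.0291, 0.0332 and 0.0642 RPKM in the treated ones. Cd3g (0.0360, 0 and 0.0397 RPKM) and Trbc2 (0, 0 and 0.244) were above 0 in treated libraries only. Cd5 (means of 0.365 and 0.0248 RPKM), Lck (0.139 and 0.0387) and Dntt (0.0282 and 0.00665) were lower with treatment. The part of thymocyte RNA in the results was not tested. The sum of the 20 markers was 4.63 to 5.23 RPKM in untreated and 2.25 to 2.94 in treated libraries. Most of it was from Cd4, which fell from 4.32 ± 0.165 to 2.14 ± 0.155 (SD, n = 3). Neutrophil markers summed to 6.31 to 6.94 and 36.9 to 40.1 RPKM, mostly through S100a8 and S100a9, with Ly6g at 0 in all libraries. Below the filter, Camp (means of 0.0240 and 0.758 RPKM), Ltf (0.0408 and 0.330) and Elane (0 and 0.107) were higher with treatment. Mpo was lower (0.0246 and 0.00855 RPKM). B cell markers (0.434 to 0.596 and 0.136 to 0.195 RPKM), stromal and epithelial markers (1.64 to 1.67 and 1.75 to 1.99) and erythroid markers (0 to 0.106 and 0.755 to 1.44) were low. In bulk RNA of this kind, fewer cells that express a gene and less RNA per cell cannot be told apart.

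The plot of levels by library gives all 10 genes side by side.

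**Figure D1:**
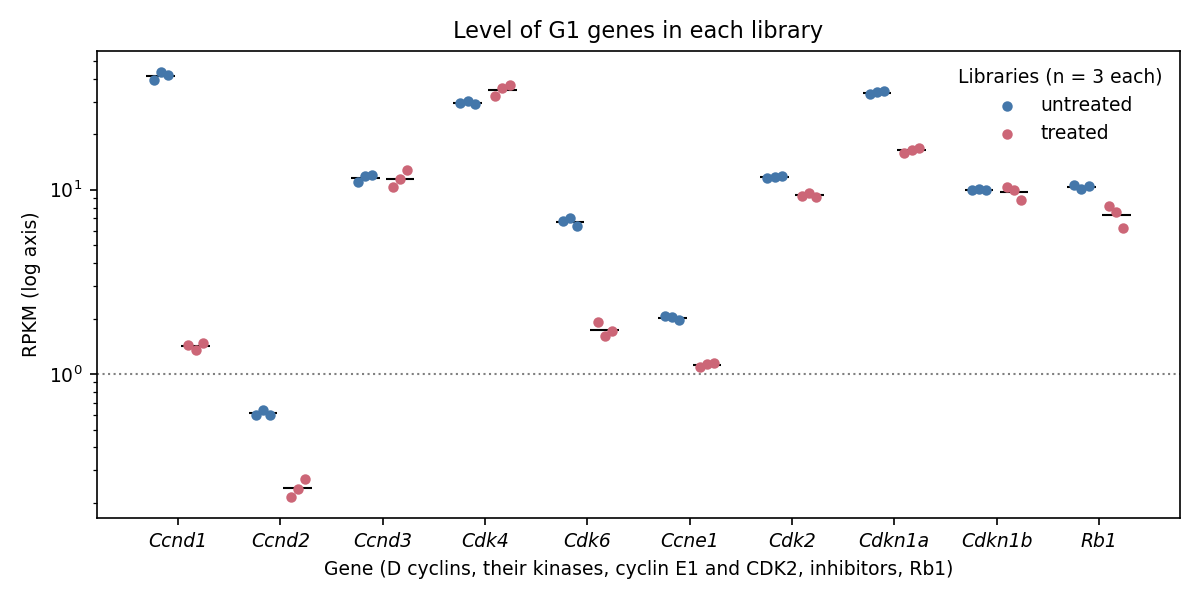
RPKM (log axis) of the 10 G1 genes in each of 3 untreated and 3 treated libraries. Points are libraries, black lines are group means and the dotted line marks 1 RPKM; Ccnd1 drops from a mean of 41.6 to 1.42 RPKM, while the points of Ccnd3 and Cdkn1b overlap between the groups.

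The D cyclin pool lost most of its cyclin D1 transcript, while no change of cyclin D3 passed the test. Ccnd1 (ENSMUSG00000070348, mm10 chromosome 7, 144929931 to 144939869, minus strand) encodes cyclin D1, the D cyclin most closely tied to growth factor signals. It stood at 39.3, 43.5 and 42.0 RPKM in the untreated libraries and at 1.44, 1.35 and 1.47 RPKM in the treated libraries. Every treated library was far below every untreated one, and the treated mean was 3.42% of the untreated mean. The log2 change was -4.14 (95% confidence interval -4.26 to -4.02, adjusted p = 7.32e-11 in limma). Untreated libraries held 2913, 3987 and 3712 recovered reads of the gene and treated ones 143, 118 and 133. Its end overlaps the gene Oraov1 on the other strand by 818 bp, and Oraov1 was at 5.95 ± 0.169 and 4.98 ± 0.242 RPKM (SD, n = 3). Use of strand in counting is not given in the sources used here. Whether reads of Oraov1 were counted for Ccnd1, and what part of the low treated reads they make up, was not tested.

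Ccnd2 (ENSMUSG00000000184, chromosome 6, 127125779 to 127151048, minus strand), the cyclin D2 gene, was the lowest of the 10 genes in both groups. Its level was 0.599, 0.638 and 0.601 RPKM in untreated and 0.216, 0.239 and 0.268 RPKM in treated libraries, from 66, 87 and 79 and from 32, 31 and 36 reads. The groups did not overlap, and the ratio of means was 0.393. Because all values are under 1 RPKM, the gene is outside the test, and a fit with no expression filter called it lower, by a log2 change of -0.38 (adjusted p = 0.000102).

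Ccnd3 (ENSMUSG00000034165, chromosome 17, 47505051 to 47599683, plus strand) encodes cyclin D3, which lymphoid and myeloid cells commonly use. The untreated libraries held 11.1, 11.8 and 12.0 RPKM and the treated libraries 10.3, 11.4 and 12.7 RPKM. The treated values reach both below and above the untreated ones. The log2 change of -0.02 had a 95% confidence interval of -0.18 to 0.14 (adjusted p = 0.815), and its sign turned positive with median-of-ratios scaling (0.14), upper-quartile scaling (0.086) and without treated replicate 1 (0.049).

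As sums per library, the 3 D cyclins came to 51.0, 55.96 and 54.5 RPKM untreated and 11.9, 13.01 and 14.5 RPKM treated. Ccnd1 made up 77.3% ± 0.395 of the sum in untreated and 10.9% ± 1.02 in treated libraries, and Ccnd3 made up 21.6% ± 0.404 and 87.3% ± 0.998 (SD, n = 3). Ccnd1 was 3.58 ± 0.0858 times as abundant as Ccnd3 without apoptotic cells, and Ccnd3 was 8.09 ± 0.808 times as abundant as Ccnd1 with them. Such ratios within a library do not depend on how the library is scaled. They are given as descriptions with no test.

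**Figure D2:**
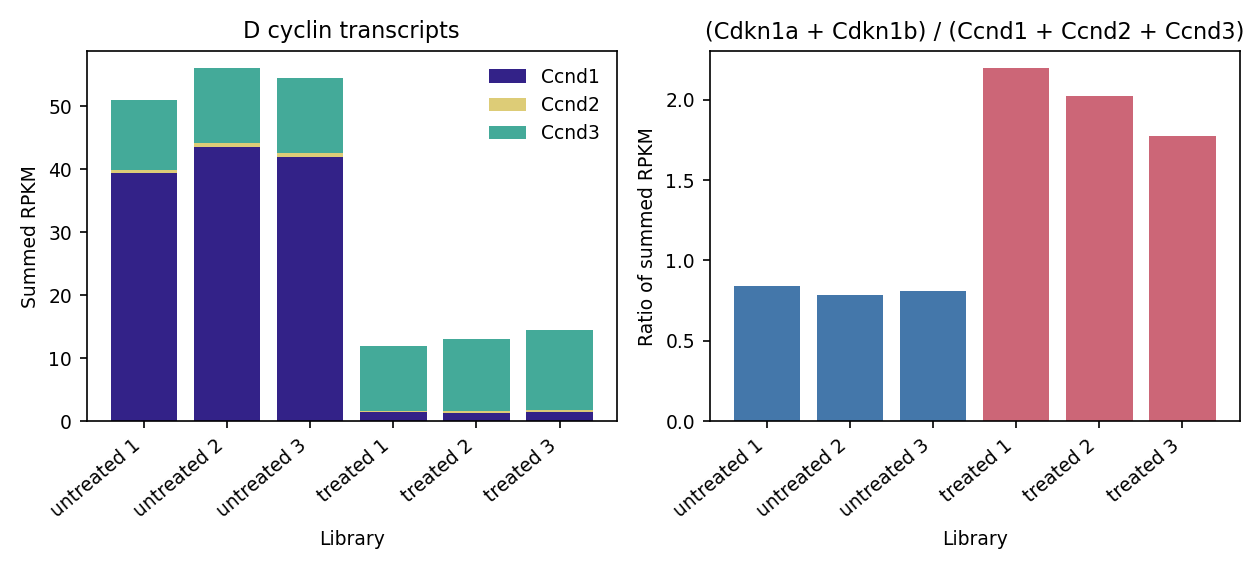
Left, summed RPKM of Ccnd1, Ccnd2 and Ccnd3 in each library, stacked by gene. Right, the ratio of the summed Cdkn1a and Cdkn1b RPKM to the summed D cyclin RPKM in each library; it lies between 0.785 and 0.840 in untreated and between 1.77 and 2.19 in treated libraries.

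The kinases of the D cyclins moved apart. Cdk6 (ENSMUSG00000040274, chromosome 5, 3343893 to 3523218, plus strand) stood at 6.74, 6.999 and 6.38 RPKM in untreated libraries and at 1.91, 1.61 and 1.71 RPKM in treated libraries. The groups lay well apart, with 486 to 625 reads untreated and 137 to 185 treated. It fell 3.85-fold (log2 change -1.49, 95% confidence interval -1.63 to -1.35, adjusted p = 5.31e-08). Cdk4 (ENSMUSG00000006728, chromosome 10, 127063534 to 127067920, plus strand) was the one gene of the group that rose. Its values were 29.6, 30.3 and 29.1 RPKM untreated and 32.2, 35.7 and 36.8 RPKM treated, with no overlap. The rise was 1.18-fold (log2 change 0.23, 95% confidence interval 0.10 to 0.35, adjusted p = 0.00588), and over 14 alternatives its adjusted p ranged from 0.000320 to 0.0297. The last 604 bp of Cdk4 are shared with Tspan31 on the other strand, which rose from 50.6 ± 1.25 to 60.7 ± 2.01 RPKM (SD, n = 3; adjusted p = 0.000711). Since use of strand in counting is not given in the sources used here, reads of this stretch cannot be assigned, and their part in the rise was not tested.

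The summed level of both kinases was 36.3 ± 0.914 RPKM in untreated and 36.6 ± 2.30 in treated libraries (SD, n = 3). Within it, the ratio of Cdk4 to Cdk6 went from 4.42 ± 0.118 to 20.2 ± 2.93. The summed D cyclins were 1.48 ± 0.0685 times the summed kinases without apoptotic cells and 0.358 ± 0.0149 times with them.

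Cyclin E1 and CDK2, which act after the D cyclins, fell by smaller amounts. Ccne1 (ENSMUSG00000002068, chromosome 7, 38097984 to 38107534, minus strand) was at 2.06, 2.04 and 1.97 RPKM in untreated and at 1.09, 1.14 and 1.15 RPKM in treated libraries, from 106, 130 and 121 and from 75, 69 and 72 reads. The groups did not overlap, and the gene fell 1.80-fold (log2 change -0.51, SE 0.0537, adjusted p = 3.37e-05). With a pseudocount of 0.01 in place of 1 the log2 change was -0.84. Cdk2 (ENSMUSG00000025358, chromosome 10, 128697939 to 128705051, minus strand) was at 11.5, 11.7 and 11.9 RPKM in untreated and at 9.26, 9.62 and 9.08 RPKM in treated libraries. It fell 1.26-fold (log2 change -0.30, SE 0.0450, adjusted p = 0.000359). With median-of-ratios scaling the change of Cdk2 was -0.14 (adjusted p = 0.0232).

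Neither inhibitor gene passed as higher. Cdkn1a (ENSMUSG00000023067, chromosome 17, 29090979 to 29100722, plus strand), whose p21 protein is a classical product of p53 signalling, was at 32.8, 33.9 and 34.2 RPKM in untreated libraries. In treated libraries it was at 15.8, 16.4 and 16.8 RPKM, all below the untreated range, from 832 to 911 reads against 1410 to 1801. It fell 2.06-fold (log2 change -0.997, 95% confidence interval -1.10 to -0.90, adjusted p = 7.80e-08). Cdkn1b (ENSMUSG00000003031, chromosome 6, 134920401 to 134925513, plus strand) encodes p27, which holds resting cells in G1. It was at 9.997, 10.03 and 9.92 RPKM in untreated and at 10.4, 9.92 and 8.76 RPKM in treated libraries, with treated replicate 3 the lowest. The log2 change of -0.04 had a 95% confidence interval of -0.18 to 0.10 (adjusted p = 0.572), and it was 0.11 with median-of-ratios scaling, 0.063 with upper-quartile scaling and 0.023 without treated replicate 3.

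Both inhibitors together came to 43.6 ± 0.685 RPKM in untreated and 26.1 ± 0.395 in treated libraries (SD, n = 3). Relative to the D cyclin sum they stood at 0.840, 0.785 and 0.809 without apoptotic cells and at 2.19, 2.02 and 1.77 with them. Inhibitor transcripts were thus fewer in level and more numerous per D cyclin transcript.

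Rb1 (ENSMUSG00000022105, chromosome 14, 73183673 to 73325822, minus strand), the substrate of these kinases, was at 10.6, 10.1 and 10.5 RPKM in untreated libraries. Treated libraries held 8.20, 7.53 and 6.20 RPKM, the widest relative spread among the tested genes of the group, again with treated replicate 3 lowest. It fell 1.42-fold (log2 change -0.46, 95% confidence interval -0.65 to -0.28, adjusted p = 0.00105), and by 0.36 on the log2 scale without treated replicate 3. The gene Lpar6 lies wholly inside Rb1 on the other strand and fell from 47.6 ± 0.990 to 19.3 ± 2.83 RPKM (SD, n = 3), and Rcbtb2, which overlaps Rb1 by 24171 bp, fell from 20.9 ± 1.06 to 11.8 ± 0.317. Whether reads of these genes were counted for Rb1 was not tested.

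**Figure D3:**
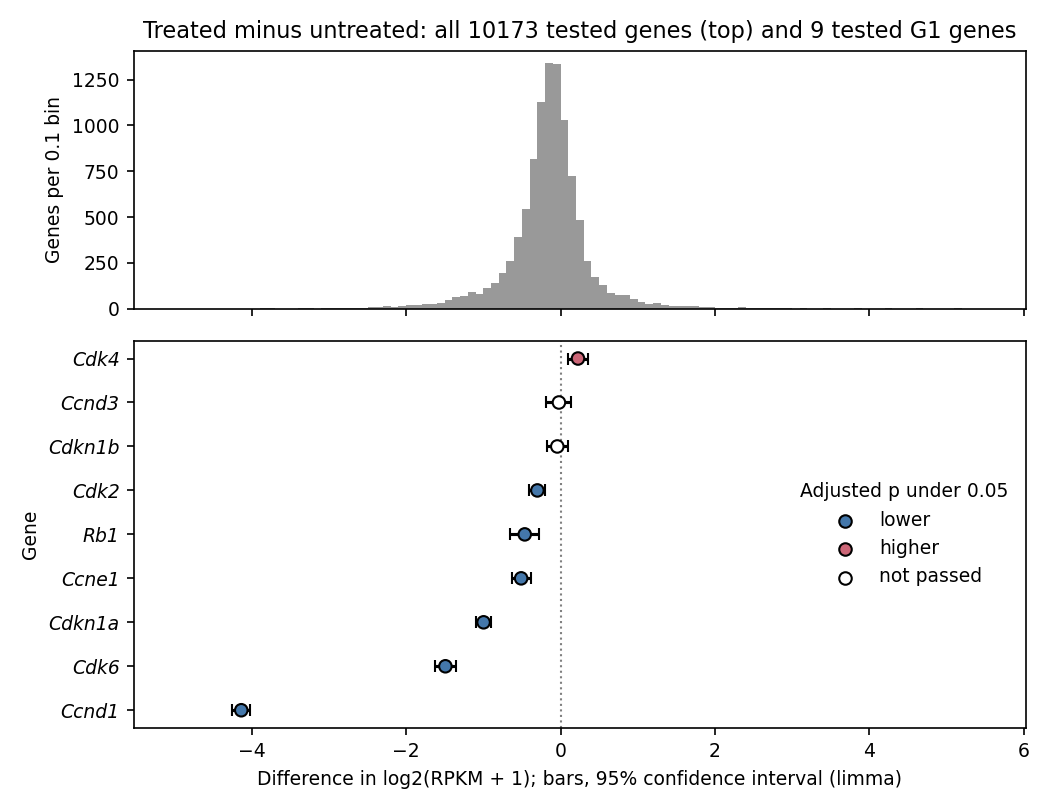
Top, number of genes per bin of 0.1 in the difference of log2(RPKM + 1), treated minus untreated, over all 10173 tested genes. Bottom, the same difference for the 9 tested G1 genes with its 95% confidence interval in limma; 6 genes lie below 0, Cdk4 lies above, and the intervals of Ccnd3 and Cdkn1b span 0.

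The order of levels changed with treatment. In untreated libraries Ccnd1 was the highest at 41.6 ± 2.10 RPKM, followed by Cdkn1a, Cdk4, Cdk2, Ccnd3, Rb1, Cdkn1b, Cdk6, Ccne1 and Ccnd2, and only Cdk2 and Ccnd3 had overlapping values among neighbours in that order. With apoptotic thymocytes Cdk4 was the highest at 34.9 ± 2.43 RPKM (SD, n = 3), followed by Cdkn1a, Ccnd3, Cdkn1b, Cdk2, Rb1, Cdk6, Ccnd1, Ccne1 and Ccnd2. There, the values of Ccnd3 overlapped those of Cdkn1b, and those of Cdkn1b overlapped those of Cdk2. The length behind a level matters for such orders. For Cdk6 the shortest length that gave whole reads was 3735 bp, whereas all exons of GENCODE M21 cover 13989 bp, and for Ccnd3 the lengths were 2113 and 8775 bp.

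Promoter sequences of 7 of the 10 genes, 9 windows of 300 bases from 250 before to 50 after a start site, were taken from RefSeq (GRCm38.p6) and searched on both strands. Ccnd1, Ccnd2 and Rb1 had no entry. Below are 3 windows, each written 5′ to 3′ along its gene, shown because they hold the most E-boxes, the p53 half-sites and the E2F site found in the 9 windows. Capitals mark the matches.
Cdk4 (chr10:127063285-127063584, plus strand, E-box in capitals): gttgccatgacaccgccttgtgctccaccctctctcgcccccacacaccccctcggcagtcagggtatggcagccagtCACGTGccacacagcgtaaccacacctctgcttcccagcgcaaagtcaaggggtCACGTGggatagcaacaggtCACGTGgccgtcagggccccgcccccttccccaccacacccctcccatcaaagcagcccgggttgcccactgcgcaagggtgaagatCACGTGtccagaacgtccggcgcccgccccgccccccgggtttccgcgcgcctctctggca
Cdkn1a, upstream start (chr17:29090729-29091028, plus strand, p53 half-site in capitals): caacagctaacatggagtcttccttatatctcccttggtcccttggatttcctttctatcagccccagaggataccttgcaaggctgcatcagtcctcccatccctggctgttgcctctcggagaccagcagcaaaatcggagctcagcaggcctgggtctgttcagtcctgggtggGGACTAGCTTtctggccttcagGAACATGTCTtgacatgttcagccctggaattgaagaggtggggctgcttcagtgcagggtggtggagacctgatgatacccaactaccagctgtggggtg
Cdk2 (chr10:128705002-128705301, minus strand, E2F site in capitals): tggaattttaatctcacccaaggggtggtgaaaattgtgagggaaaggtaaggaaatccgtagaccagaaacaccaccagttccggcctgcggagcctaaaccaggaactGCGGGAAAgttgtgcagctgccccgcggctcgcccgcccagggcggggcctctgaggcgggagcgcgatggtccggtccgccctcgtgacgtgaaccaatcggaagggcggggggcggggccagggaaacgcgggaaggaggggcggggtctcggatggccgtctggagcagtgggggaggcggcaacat

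The window of Cdk4, the gene that rose, held 4 E-boxes (CACGTG, the element bound by MYC and related factors), with first bases at -172, -118, -98 and -11 from the start, and the window of Cdk6, which fell, held 1. Of all 32851 RefSeq windows, 7.15% held an E-box and 0.0883% held 3 or more. Cdkn1a had 2 start sites on record, and the upstream window held 2 matches to the p53 half-site, which is a degenerate motif. At least 1 such match was present in 8.36% of all windows and at least 2 in 0.359%. An E2F site (TTTCGCGC, TTTGGCGC or TTTCCCGC) was found once, in Cdk2, and in 1.84% of all windows. GC boxes (GGGCGG), present in 35.7% of all windows, were found in 7 of the 9 windows, with 6 in Cdk2 and 4 in Ccne1. A match is a description of the letters and not a bound site.

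The partners of these genes were followed in lists of other G1, S phase and signalling genes. Over all tested genes, the shares to set beside the list counts were 46.0% lower and 18.8% higher. With median-of-ratios scaling they were 27.9% and 31.9%. Among other cyclins and kinases of G1, 6 of 9 tested genes fell and 0 rose at an adjusted p under 0.05 in limma; with median-of-ratios scaling 4 fell and 1 rose. Ccne2, the cyclin E2 gene, fell from 2.10 ± 0.206 to 0.159 ± 0.0634 RPKM, and so passed the filter only through the untreated libraries. It was not tested when any 1 of those was omitted, and 4 genes of the list were then called lower. Ccna2, the cyclin A2 gene of S phase, fell from 3.68 ± 0.355 to 1.49 ± 0.147, and Cdc25a, a phosphatase that activates CDK2, fell from 5.32 ± 0.213 to 3.79 ± 0.297 RPKM. The parts of the CDK-activating kinase did not pass: Cdk7 was at 4.03 and 4.16 RPKM, Ccnh at 6.13 and 5.43 and Mnat1 at 4.32 and 4.36. Cdk7 was the gene called higher after median-of-ratios scaling.

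Of 5 further inhibitor genes, 3 were tested. Cdkn1c, which encodes p57, the third inhibitor of the p21 and p27 family, fell from 23.8 ± 1.06 to 16.7 ± 1.01 RPKM (log2 change -0.48, adjusted p = 6.08e-05). Cdkn2c and Cdkn2d, inhibitors of CDK4 and CDK6, did not pass (3.86 to 3.42 and 5.78 to 6.72 RPKM), and Cdkn2d was called higher after median-of-ratios scaling and without treated replicate 1. Upper-quartile scaling also gave 1 higher gene in this list. Without treated replicate 3, 2 of the 3 genes passed as lower.

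Of 11 tested genes of the pocket protein and E2F family, 9 fell and 2 rose, against 46.0% lower and 18.8% higher over all genes. The median log2 change of the 11 was -0.34. After median-of-ratios scaling 6 were lower and 2 higher, with Rbl2, E2f5 and Tfdp1 no longer called and a median of -0.20, and without untreated replicate 3 there were 6 lower and 1 higher. E2f1, an activator of S phase genes, fell from 11.0 ± 0.443 to 6.64 ± 0.159 RPKM. E2f8, a late repressor that passed the filter only through the untreated libraries, fell from 1.71 ± 0.0374 to 0.300 ± 0.0366, and Tfdp2, a dimer partner of E2F, from 2.37 ± 0.181 to 1.20 ± 0.0322. The rises were in E2f4, a repressor of resting cells (20.4 ± 1.36 to 25.7 ± 1.33 RPKM, log2 change 0.32), and in E2f6 (9.22 ± 0.570 to 10.5 ± 0.261, log2 change 0.17). The call of E2f6 did not hold when untreated replicate 1, untreated replicate 3 or treated replicate 2 was omitted, with adjusted p of 0.0813, 0.0827 and 0.0669. Of 7 genes of the DREAM and MuvB complexes, which work with pocket proteins, 4 fell and 0 rose, or 3 and 0 after median-of-ratios scaling. Of the 4, 2 had passed the filter only through the untreated libraries and left it when any untreated replicate was omitted, so that 2 calls were then left. Lin9 fell from 4.08 ± 0.283 to 1.67 ± 0.101, Mybl2 from 1.27 ± 0.185 to 0.380 ± 0.0456 and Foxm1 from 1.36 ± 0.247 to 0.772 ± 0.101 RPKM.

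The genes of DNA synthesis that E2F is known to switch on were lower. Of 20 S phase genes, 19 were tested, 6 of them only through their untreated level, and 18 fell and 0 rose, with the same counts after median-of-ratios scaling. When any 1 untreated library was omitted, genes left the filter and 12 to 13 were called lower. The median log2 change was -0.90. Pcna, the clamp of DNA polymerase, fell from 170 ± 4.90 to 75.0 ± 1.997 RPKM, and the helicase genes Mcm5 and Mcm6 fell from 12.6 ± 0.275 to 3.24 ± 0.0801 and from 42.4 ± 2.51 to 12.6 ± 0.694. Of 15 mitosis genes, 13 fell and 0 rose, or 9 and 0 after that scaling, by a median of -0.41. Among them 1, Bub1, had passed the filter only through the untreated libraries, and omission of 1 library at a time left 9 to 12 lower. Top2a fell from 5.506 ± 0.196 to 1.88 ± 0.284, Tpx2 from 3.30 ± 0.0898 to 1.54 ± 0.119 and Cenpa from 4.94 ± 0.118 to 2.11 ± 0.274 RPKM, whereas Ccnb2 was at 2.25 and 2.28.

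Subunits of the ubiquitin ligases that turn over G1 proteins mostly did not pass, with 2 higher, 3 lower and 9 not passed of 14. With median-of-ratios scaling 8 were higher and 2 lower, without untreated replicate 2 there were 4 higher, and without untreated replicate 3 there were 1 higher and 1 lower. Cks1b and Skp2, which together mark p27 for destruction, rose from 5.89 ± 0.302 to 7.70 ± 0.735 RPKM (log2 change 0.33) and from 2.75 ± 0.261 to 3.44 ± 0.232 (log2 change 0.24). The call of Skp2 was lost without untreated replicate 3 (adjusted p = 0.0549). Cul1, the scaffold of the same ligase, fell from 28.9 ± 0.437 to 20.7 ± 2.88, and Dtl, a receptor subunit that targets p21 in S phase, fell from 2.11 ± 0.0402 to 0.228 ± 0.0404 RPKM. Dtl passed the filter only through the untreated libraries and was not tested when any 1 of them was omitted. Fzr1 was at 6.97 ± 0.333 and 5.80 ± 0.668 RPKM (adjusted p = 0.0218), a call lost after scaling by median of ratios (0.374) or upper quartile (0.152), with no filter (0.0600), or without untreated replicate 3 (0.0818), treated replicate 1 (0.0521) or treated replicate 2 (0.0619).

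Of 21 tested genes of p53 and its targets, the group to which Cdkn1a belongs, 10 fell, 5 rose and 6 did not pass. These shares are near those of all tested genes, of which 46.0% were lower and 18.8% higher. After median-of-ratios scaling there were 7 in each direction, against 27.9% lower and 31.9% higher among all genes. Plk2, a kinase gene, fell from 82.8 ± 0.738 to 15.96 ± 0.586 RPKM, Sesn1, a stress protein gene, from 44.9 ± 0.290 to 13.6 ± 0.272, and Bbc3, which encodes the death protein PUMA, from 5.01 ± 0.182 to 2.32 ± 0.129. Trp53inp1 rose from 6.82 ± 0.405 to 42.5 ± 6.78, the death receptor gene Fas from 1.08 ± 0.0699 to 3.09 ± 0.0660 and Bax from 99.6 ± 2.71 to 129 ± 4.63 RPKM. Trp53 itself was lower, at 14.2 and 8.90 RPKM, and so was Mdm2, at 27.6 and 19.8.

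Genes that feed growth factor signals to the D cyclins were mostly lower. Of 17 tested genes, 14 fell, 1 rose and 2 did not pass, against 46.0% lower and 18.8% higher over all genes. The median log2 change of the 17 was -0.57, and 2 had passed the filter only through the untreated libraries. After median-of-ratios scaling 12 were lower and 2 higher, against 27.9% and 31.9% over all genes, and the median was -0.40. Etv5, a target of ERK signalling, fell from 13.8 ± 0.385 to 0.451 ± 0.0451 RPKM, the AP-1 gene Fos from 63.8 ± 1.18 to 13.05 ± 0.421 and Myc from 9.62 ± 0.516 to 2.59 ± 0.114. Etv5 is 1 of the 2 genes that passed through the untreated libraries alone, and it was not tested when any 1 of those was omitted, which left 12 lower genes. The gene of the CSF1 receptor, Csf1r, fell from a mean of 536 to 359 RPKM, and Stat3 rose from 11.3 ± 0.410 to 14.2 ± 0.856. Of 12 tested FoxO factors and targets, the group to which Cdkn1b belongs, 9 fell and 1 rose, or 7 and 3 with median-of-ratios scaling. Bcl6 fell from 17.6 ± 0.303 to 4.85 ± 0.0937 and Txnip from 95.3 ± 1.81 to 59.5 ± 2.20, and Pik3ip1 rose from 0.381 ± 0.0336 to 1.33 ± 0.205 RPKM. Pik3ip1 passed the filter only through the treated libraries and left it without any one of them.

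**Figure D4:**
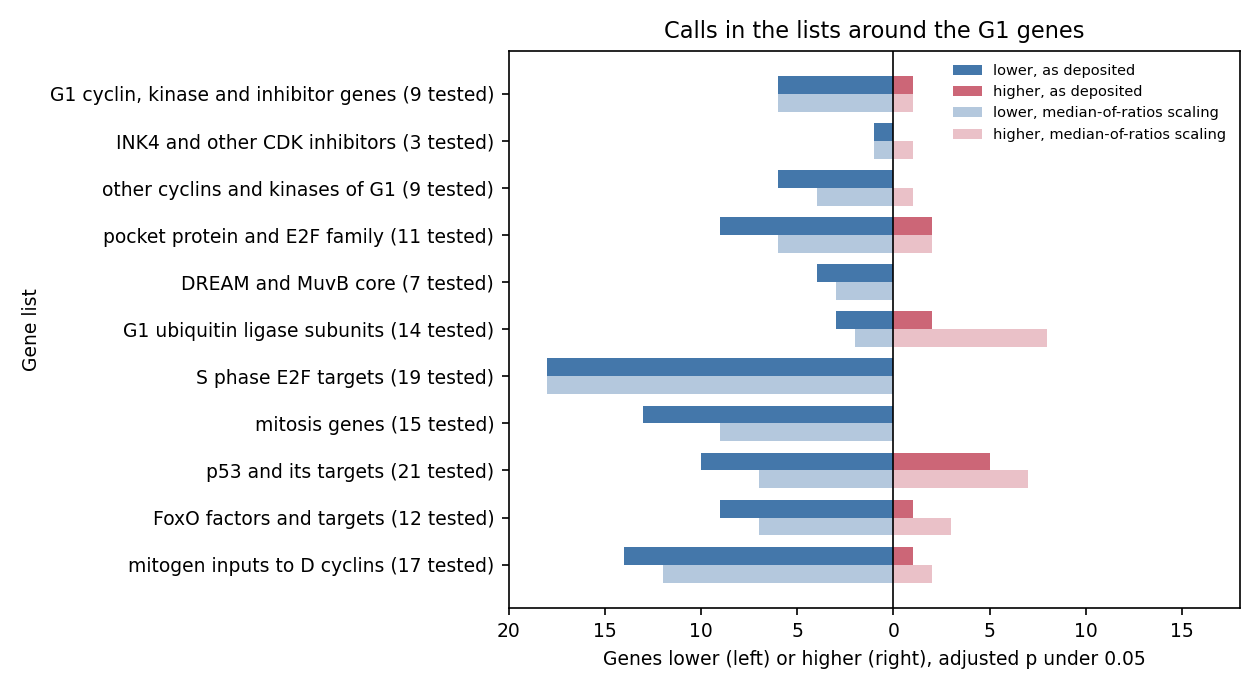
Number of genes lower (left) and higher (right) in each list at an adjusted p under 0.05 in limma, on the values as deposited (dark) and after median-of-ratios scaling (light). The S phase list has 18 lower genes under both, and the ubiquitin ligase list goes from 2 to 8 higher genes.

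The genes nearest to Ccnd1 in pattern, by the root mean square difference of log2(RPKM + 1) over 6 libraries after each gene was centred on its own mean, were Kcnn4 (0.110), Pdgfb (0.132), Tnip3 (0.147), Pcdh7 (0.161) and Pcp4l1 (0.162). Each stood high in all untreated and low in all treated libraries, Kcnn4 at 78.2 and 4.09 RPKM. Nearest to Cdkn1a were Bcl2l11 (0.0165), Rtn4 (0.0248), Slc7a1 (0.0256), Cyfip1 (0.0263) and Itpkb (0.0264). Bcl2l11, which encodes the death protein BIM, was at 15.8 ± 0.287 and 7.56 ± 0.256 RPKM (SD, n = 3). With 6 libraries in 2 groups, this likeness is mainly that of the difference between the groups.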

How the data were processed

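Poly(A) RNA of 3 untreated and 3 treated macrophage cultures was profiled with TruSeq stranded libraries on a NextSeq 550, per the labels' protocols. The authors deposited RPKM values, per the file headers, with 1 column per library, and 0 columns belonged to no sample. Coordinates follow GRCm38 (mm10), which the submitters' processing notes name. Aligner, counting program, gene models and use of strand are not given in the sources used here.

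Reads were recovered as the whole numbers that depth and gene length make of the RPKM values, within 0.001 reads, for 100% of the 18737 genes above 0 (9371 with GENCODE M21 exon lengths, the rest with the shortest fitting length up to 30000 bp). A searched length may be off by a common factor. Reads serve as depth only and cover counting error only. Replicate pairs differed by more than counting noise (chi-square per gene 1.67 to 16.3, highest between treated replicates 1 and 3).

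A linear model with a trend of variance on level was fitted in limma 3.58.1 under R 4.3.3 to log2(RPKM + 1), group as the only term, for genes that reached 1 RPKM in 3 or more libraries, with Benjamini-Hochberg adjustment over 10173 genes. The pseudocount of 1 understates changes of low genes. On simulated reads for 10162 genes the test called 72% of genes changed 1.25-fold, 100% of those changed 1.5-fold or more and 0.141% of unchanged genes. The simulation set a replicate SD of 0.05 of the mean beside counting noise, equal in both groups, with 200 changed genes. In the real data 64.8% of genes were called, and some treated values spread more (Rb1 7.31 ± 1.02 RPKM, SD, n = 3). The rates thus hold for the simulated setting only. Tables and plots were made in Python 3.11.15.

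All 10 genes are named in full, and of each other list the up to 3 called genes with the smallest p in each direction, plus 5 nearest genes in pattern for Ccnd1 and Cdkn1a. Others were named after their values were seen: the CDK-activating kinase, Cdkn2c, Cdkn2d, Rbl2, E2f5, Tfdp1, Ccnb2, Bub1, Trp53, Mdm2, Csf1r, Emr1, Cd68, genes that overlap a member, markers named at or near 0 and genes under the filter. The genes and lists were chosen with earlier results of these data known. F4/80 was found under its older symbol Emr1, and 2 of 7 erythroid symbols were not matched. Alternatives were other pseudocounts, filters and scalings, no trend, a replicate block and omission of each library.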

Additional observations from a re-analysis of the deposited data

How the results depend on the processing

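The calls of the 6 lower genes and of Cdk4 held under every alternative in which each could be tested, with log2 changes of -4.86 to -4.0001 for Ccnd1, -1.94 to -1.36 for Cdk6, -1.04 to -0.83 for Cdkn1a, -0.84 to -0.41 for Ccne1, -0.54 to -0.31 for Rb1, -0.33 to -0.14 for Cdk2 and 0.19 to 0.39 for Cdk4. Ccne1 could not be tested with a filter of 5 RPKM. The changes of Ccnd3 and Cdkn1b did not pass under any alternative, and their sign turned positive with median-of-ratios scaling (0.14 and 0.11) and upper-quartile scaling (0.086 and 0.063); leaving out 1 library at a time gave -0.091 to 0.049 and -0.089 to 0.023. The cause was not tested. The untested log2 change of Ccnd2, -0.38 with a pseudocount of 1, was -1.07 with 0.1, -1.32 with 0.01, -0.33 with median-of-ratios and -0.34 with upper-quartile scaling, and with no filter it passed (-0.38, adjusted p = 0.000102).

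Over all genes, median-of-ratios scaling moved the counts from 1915 higher and 4679 lower to 3234 and 2832. Over the 10 lists around the G1 genes, higher entries went from 11 to 24 with that scaling and to 20 with upper-quartile scaling, while lower entries were 87, 69 and 75. The stricter filter tests fewer genes and gave 1569 higher and 3144 lower genes. Correlations of deviations were 0.197, -0.0310 and -0.162 for same-numbered replicates 1 to 3, and -0.319 to 0.326 for unlike numbers. From 3 libraries per group it cannot be told whether the numbers pair the libraries. With the replicate number as a block, 1904 genes were higher and 4627 lower, and the log2 changes of the 10 genes were unchanged by construction, with 6 lower and 1 higher as before. Depth limits Ccnd2 most, at 31 to 87 reads per library.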

Other observations

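Some genes around this system were too low to be tested and are given as mean RPKM in untreated and treated libraries. The INK4 inhibitor genes Cdkn2a and Cdkn2b were at 0.105 and 0.0920 and at 0.371 and 0.369. The repressor gene E2f7 was at 0.364 and 0.0645, and the replication licensing gene Cdc6 was at 1.03 and 0.330.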
